A study of Gallus gallus with 12 samples.

Results

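The comparison described here sets neural tube cells that had received NEUROG2 against cells that had received a control plasmid, both read 6 hours after electroporation of chick embryos. Its members are the 4 arrays titled NEUROG2-GFP and the 4 titled control-GFP, 8 of the 12 arrays in the series, chosen by their titles, with the probe sets whose identifiers start with Gga. The remaining 4 arrays carried NEUROG2AQ, a form known from other work to be changed in the region through which the factor contacts DNA. They entered the same fit, and their values are summarised for 40 of the genes named below. In each group embryos of the HH10 to HH11 stage were electroporated in ovo. The plasmid was pCIGNEUROG2-GFP for NEUROG2, pCIGNEUROG2AQ-GFP for NEUROG2AQ and pGIG-GFP for the control, so that GFP was made in all groups. Each array was a biological replicate: the neural tubes of 20 embryos were pooled, the GFP-positive cells were sorted, and label was made from 50 ng of their total RNA. The labels name neither the promoter of the plasmids nor the species of the inserted sequence. They also differ among themselves on the stage and on the range of somite numbers. The sort selected cells that had taken up a plasmid and made GFP, whatever their type, and every group keeps its own resident NEUROG2 gene.

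NEUROG2 is a basic helix-loop-helix transcription factor that pairs with E proteins and binds E-box motifs in DNA. In the neural tube it moves dividing progenitors towards neuronal fate, and its best known targets are Notch ligands, later neuronal transcription factors and genes of the cell cycle. The results below cover the rest of the array: pumps and channels, GTPase and kinase signalling, secreted and matrix proteins, glycan enzymes, transcription factors, nuclear transport, and the machinery that every cell runs. Because the RNA came from sorted bulk cells, fewer cells of a type and less RNA per cell cannot be told apart in any value given here.

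Over the 37693 probe sets tested, the median log2 signal of an array lay between 2.81 and 2.90, and all 12 arrays held different values. The 27166 probe sets with 1 gene symbol covered 13008 genes. Control replicate 1 stood apart from the other controls: it was the highest of the 4 for 13 of 16 somite and muscle markers and for 13 of 20 endoderm and lateral plate markers. For the somite markers its log2 signals averaged 3.83, against 2.97 to 3.32 in the other controls. Counts of the function lists and families that moved by more than 1.5 times without this or another single array are therefore given with their changed values. Smaller shifts in these counts are mostly left out. The cells carried their labelled identity: the 17 measured neural tube markers, among them SOX2, PAX6 and ZIC1, averaged 7.62 to 7.80 in the NEUROG2 arrays and 8.12 to 8.23 in the control arrays. The array's own NEUROG2 probe set read 4.10, 3.92, 3.69 and 3.89 in the NEUROG2 arrays and 6.07, 5.61, 5.28 and 5.33 in the control arrays. It was thus lower where the factor had been added, and without the sequences of the insert and the probes it does not check the labels.

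At 6 hours 2515 of 37693 probe sets, 6.67%, differed between NEUROG2 and control cells at a Benjamini-Hochberg adjusted p below 0.05 in limma, 1242 of them higher and 1273 lower with NEUROG2. Taking for each gene the probe set that was brightest on average, 1377 of 13008 passed (10.6%). Of these 678 were higher (5.21%) and 699 lower (5.37%). The numbers in each direction were close, but the sizes were not. Among genes past the threshold, a change of at least 2-fold was reached by 311 (2.39% of all genes), 216 of them higher and 95 lower. Changes of at least 2 on the log2 scale numbered 51 higher and 3 lower, and changes of at least 3 numbered 13 higher and none lower. The largest increase was 3.97 and the largest decrease -2.45 on that scale. The median change was 0.76 among genes called higher and -0.62 among genes called lower, against 0.01 over all 13008 genes.

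**Figure D1:**
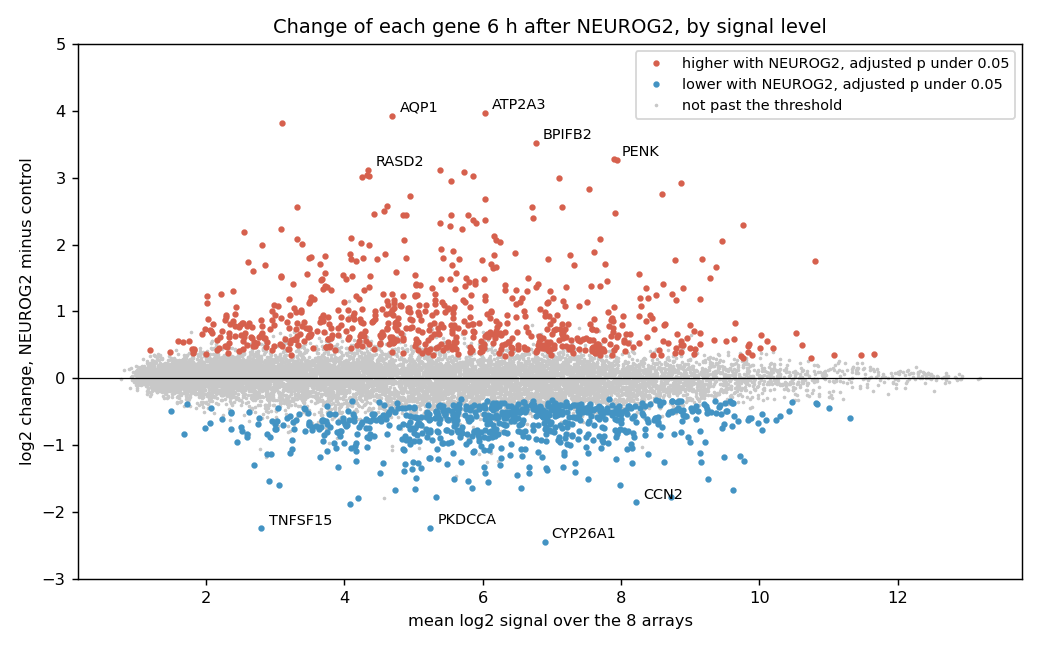
Each point is 1 of 13008 genes, with its mean log2 signal over the 8 arrays on the horizontal axis and its log2 change, NEUROG2 minus control, on the vertical axis. Red and blue points passed an adjusted p of 0.05 as higher (678) and lower (699) with NEUROG2, and the red points reach 3.97 while the blue points reach -2.45.

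The balance of directions moved with scaling and with single arrays. Of the probe sets called, 49.4% were higher with the deposited values, 43.7% after median centring of each array and 55.8% after cyclic loess. The share was 43.7% without control replicate 1 and 55.7% without NEUROG2 replicate 3. Genes called lower numbered 441 without NEUROG2 replicate 3 and 969 without control replicate 1. Among probe sets of at least 2-fold change, 376 were higher and 161 lower with the deposited values, and this split was not taken under other scalings or without single arrays. In 2068 genes (15.9%) all 4 arrays of one group lay on one side of the other 4, and 1281 of these also passed the test. The 95% interval of a gene's change reached 0.27 to either side in the median gene, and for 62.1% of genes the whole interval lay within 0.5 of 0.

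Genes of the classical neuronal, progenitor and cell cycle sets were called at shares above background, and took up some of these calls. Of 329 measured, 32 were higher (9.73%) and 106 lower (32.2%), against 5.21% and 5.37% of all genes. With those genes, clone names and LOC numbers left out, the 20 largest increases ran from 2.51 to 3.97 on the log2 scale and belonged to ion and water transport, small GTPase signalling, secreted and matrix proteins, surface glycoproteins and a few proteins of little known function. The 20 largest decreases ran from -2.45 to -1.34 and included secreted signals and receptors, matricellular proteins, transcriptional cofactors and a retinoic acid degrading enzyme. These 40 genes were picked by size from the same fit, among genes that passed and whose groups did not overlap. That the groups stand apart in each was thus fixed by the choice, and the values describe these genes and support nothing further. All 40 passed under each of the 17 settings without a fold limit that were tried.

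With each gene read from its brightest probe set, the largest increase was that of ATP2A3, the calcium pump SERCA3 of the endoplasmic reticulum. Its log2 signal was 7.87, 8.21, 8.18 and 7.82 in the NEUROG2 arrays, against 4.46, 4.20, 3.82 and 3.71 in the control arrays, a change of 3.97 ± 0.21 (SE, n = 4 arrays a group), or 15.7-fold, with a limma adjusted p of 1.36e-08. AQP1, a water channel of the plasma membrane, read 6.00, 6.97, 7.50 and 6.18 with NEUROG2 and 2.06, 2.24, 3.81 and 2.82 in controls (3.93 ± 0.35, adjusted p = 3.40e-06). AQP1 varied most between arrays of one group among the 20 largest increases, with an SD of 0.70 and 0.79 in NEUROG2 and control arrays. Of the 2 other probe sets of ATP2A3, 1 passed in the same direction and 1 did not pass. With its probe sets averaged ATP2A3 changed by 1.79 ± 0.12, 3.47-fold. Of the 20 largest increases, only TNFAIP2 (1.66), CHN2 (1.64) and ARHGAP24 (1.28) were then smaller, averaged likewise.

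The 10 largest increases included 3 secreted proteins. PENK, the precursor of the opioid peptides enkephalins, had log2 signals of 9.26, 9.67, 9.69 and 9.54 in NEUROG2 arrays, against 7.03, 6.42, 5.90 and 5.70 in control arrays, a rise of 3.28 ± 0.24 (9.69-fold, limma adjusted p = 3.81e-07). BPIFB2, a member of a family of secreted lipid-binding proteins, read 8.49, 8.32, 8.96 and 8.35 with NEUROG2 and 5.32, 5.01, 5.05 and 4.64 in controls (3.52 ± 0.17, adjusted p = 6.03e-09). POSTN, the matrix protein periostin, read 7.12, 7.69, 7.46 and 7.20 with NEUROG2 and 4.71, 4.78, 3.44 and 4.45 in controls (3.02 ± 0.30, adjusted p = 1.15e-05). The controls were more spread than the NEUROG2 arrays for PENK and POSTN, with control replicate 3 the lowest for POSTN.

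Signalling proteins formed another part. RASD2, a small RAS-like GTPase best known from mammalian striatum, read 5.82, 5.82, 5.91 and 6.08 with NEUROG2, against 2.79, 2.81, 2.62 and 2.94 in controls, a rise of 3.12 ± 0.12 (limma adjusted p = 1.54e-09). CHN2, beta-chimaerin, which switches off the GTPase RAC, read 5.70, 5.56, 6.02 and 5.79 with NEUROG2 and 2.42, 2.69, 3.14 and 2.78 in controls (3.01 ± 0.16, adjusted p = 1.68e-08). RASD2 had the lowest adjusted p of the 40. TNFAIP2, first known as a gene induced by tumour necrosis factor in human cells, read 7.17, 7.33, 7.57 and 7.06 with NEUROG2 and 4.47, 4.19, 4.16 and 3.95 in controls (3.09 ± 0.14, adjusted p = 5.11e-09). CHN2 and TNFAIP2 each had 1 other probe set, which did not pass.

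Among the 10 largest increases were also 2 membrane proteins. MDGA1, a surface protein of the immunoglobulin family that binds neuroligins, read 5.80, 5.70, 5.65 and 6.36 with NEUROG2 and 2.73, 2.77, 2.76 and 3.11 in controls (3.03 ± 0.15, adjusted p = 6.03e-09). TMEM140, a transmembrane protein of little known function, read 5.62, 6.03, 6.16 and 5.58 with NEUROG2 and 2.67, 2.92, 2.63 and 3.01 in controls (3.04 ± 0.14, adjusted p = 5.67e-09). In control arrays both lay near the array medians, where signal is close to background, as did AQP1, RASD2, CHN2 and, further down the ranking, SMIM5. The folds of these 6 are therefore uncertain, and rest on signals that were clearly present with NEUROG2.

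The next 10 increases held more of the same kinds of protein. BAMBI, a decoy receptor that dampens BMP and TGF-beta signalling, read 10.11 to 10.65 in NEUROG2 arrays and 7.32 to 7.47 in control arrays (2.92 ± 0.13). HSPA2, a chaperone of the HSP70 family, read 9.40 to 10.28 with NEUROG2 and 6.97 to 7.42 in controls (2.76 ± 0.20). WFDC1, a secreted protein with a whey acidic protein domain, rose by 2.56 ± 0.14, and OLFML2B, a secreted olfactomedin family protein, by 2.99 ± 0.17. ARHGAP24, another protein that switches off RAC, rose by 2.73 ± 0.20, and both of its other probe sets passed in the same direction. CITED4, a coactivator that binds CBP and p300, rose by 2.69 ± 0.16. ST8SIA6, a sialyltransferase, rose by 2.57 ± 0.23, USP41, a ubiquitin-specific protease, by 2.96 ± 0.15, CACNG4, an auxiliary subunit of AMPA receptors, by 2.51 ± 0.21, and SMIM5, a small membrane protein, by 2.56 ± 0.16. The limma adjusted p-values of these 10 increases were at most 3.85e-06.

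**Figure D2:**
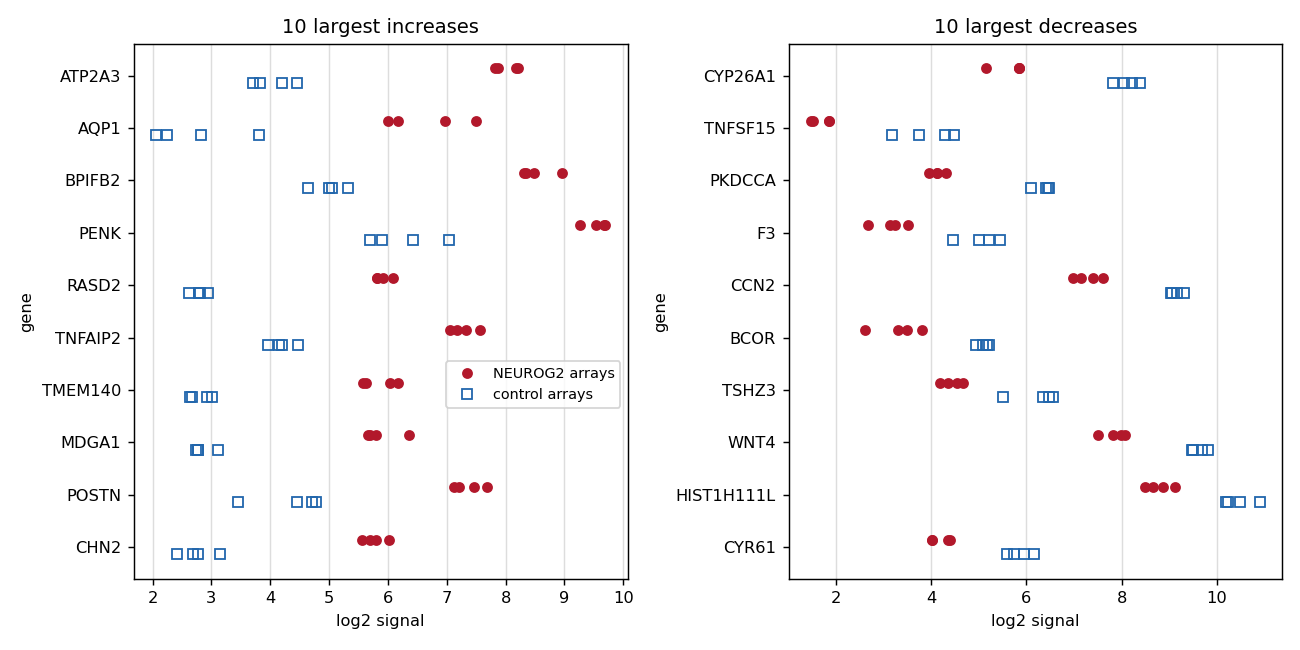
Log2 signal in each array for the 10 largest increases (left) and the 10 largest decreases (right) outside the classical sets, with filled circles for the 4 NEUROG2 arrays and open squares for the 4 control arrays. Only genes whose groups do not overlap were chosen, so that the 4 circles lie on one side of the 4 squares by choice. ATP2A3 read 7.82 to 8.21 against 3.71 to 4.46, and CYR61 read 4.01 to 4.41 against 5.60 to 6.15.

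CYP26A1, a cytochrome P450 that breaks down retinoic acid, fell most. Its log2 signal was 5.85, 5.84, 5.16 and 5.84 in NEUROG2 arrays, against 8.06, 7.82, 8.38 and 8.23 in control arrays, a change of -2.45 ± 0.19 (5.47-fold lower, limma adjusted p = 1.02e-06). NEUROG2 replicate 3 was the lowest of all. WNT4, a secreted WNT signal, read 8.06, 7.99, 7.49 and 7.82 with NEUROG2 and 9.82, 9.47, 9.49 and 9.69 in controls (-1.77 ± 0.13, adjusted p = 4.61e-07). TNFSF15, a ligand of the tumour necrosis factor superfamily, read 1.52, 1.48, 1.86 and 1.85 with NEUROG2 and 3.75, 3.18, 4.29 and 4.49 in controls (-2.25 ± 0.29, adjusted p = 0.000145). With NEUROG2 it lay below the array medians, close to background, and neither of its 2 other probe sets passed.

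The matricellular proteins CCN2 and CYR61 (CCN1), secreted cysteine-rich regulators of adhesion and growth factor action, fell side by side. CCN2 read 7.61, 7.40, 7.15 and 6.98 in NEUROG2 arrays, against 9.31, 9.16, 9.04 and 9.06 in control arrays (-1.86 ± 0.15, limma adjusted p = 1.39e-06). CYR61 read 4.35, 4.41, 4.02 and 4.01 with NEUROG2 and 6.15, 5.95, 5.74 and 5.60 in controls (-1.66 ± 0.19, adjusted p = 4.77e-05). Both are thus the opposite of POSTN, the matricellular gene that rose most. F3, tissue factor, which starts blood coagulation and also acts as a receptor, read 3.23, 3.52, 2.68 and 3.13 with NEUROG2 and 4.461, 5.219, 5.440 and 5.004 in controls (-1.89 ± 0.20, adjusted p = 1.67e-05). PKDCCA, a secreted kinase of extracellular proteins, read 4.11, 4.31, 3.96 and 4.11 with NEUROG2 and 6.09, 6.48, 6.46 and 6.42 in controls (-2.24 ± 0.13, adjusted p = 2.92e-08). The spread of PKDCCA within a group was small beside its change.

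Nuclear proteins made up the rest of the 10 largest decreases. BCOR, a corepressor that works with BCL6 and in a Polycomb complex, read 3.49, 3.81, 2.61 and 3.31 with NEUROG2 and 5.10, 5.21, 5.17 and 4.93 in controls (-1.79 ± 0.19, limma adjusted p = 1.61e-05). TSHZ3, a teashirt zinc finger factor, read 4.67, 4.54, 4.36 and 4.19 with NEUROG2 and 5.51, 6.35, 6.47 and 6.55 in controls (-1.78 ± 0.19, adjusted p = 2.02e-05). HIST1H111L, a linker histone H1, read 9.12, 8.49, 8.86 and 8.65 with NEUROG2 and 10.91, 10.24, 10.19 and 10.49 in controls (-1.68 ± 0.19, adjusted p = 3.86e-05). Among these nuclear proteins the gap between the groups was smallest in TSHZ3, where control replicate 1 was lowest among the controls. Of the other probe sets of BCOR and TSHZ3, 1 each passed as lower, and 2 and 1 did not pass.

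The next 10 decreases held receptors and signals, GDF10 (-1.64 ± 0.16), a BMP-like factor, IL17RD (-1.42 ± 0.27), an inhibitor of FGF receptor signalling, BMPR1B (-1.35 ± 0.21), a BMP receptor, and SEMA3D (-1.34 ± 0.11), a secreted guidance cue. ZFP36L2 (-1.59 ± 0.15), which marks AU-rich mRNAs for decay, read 6.95 to 7.48 in NEUROG2 arrays and 8.64 to 9.03 in control arrays. HOXA4 (-1.51 ± 0.15), a factor of anterior-posterior identity, read 6.37 to 7.02 with NEUROG2 and 8.11 to 8.57 in controls. GSG2 (-1.55 ± 0.15), the mitotic histone H3 kinase haspin, ING2 (-1.39 ± 0.17), a reader of methylated histone H3, NEDD9 (-1.54 ± 0.17), a scaffold of adhesion signalling, and CD83 (-1.59 ± 0.27), a surface protein best known from dendritic cells in mammals, completed them. Limma adjusted p-values of these 10 were at most 0.00363. As a mitotic kinase GSG2 has a role in cell division, though the classical sets do not list it. NEDD9 and CD83 lay below the array medians with NEUROG2, and the other probe sets of IL17RD and ING2, 1 each, did not pass, nor did 2 of 3 of NEDD9 and 1 of 2 of SEMA3D.

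The sizes of some of these changes depended on the probe set. Of the 40 genes 14 had more than 1 probe set, and averaging them made the log2 change more than 1.5 times smaller in 9: ATP2A3 (1.79 ± 0.12), ARHGAP24 (1.28 ± 0.09), TNFSF15 (-0.82 ± 0.14), TNFAIP2 (1.66 ± 0.12), CHN2 (1.64 ± 0.13), BCOR (-0.66 ± 0.09), NEDD9 (-0.75 ± 0.10), TSHZ3 (-1.03 ± 0.12) and ING2 (-0.67 ± 0.10). All 9 still passed in limma with their probe sets averaged.

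The same 40 genes were read in the NEUROG2AQ arrays. These comparisons share the NEUROG2 or the control arrays with the one above, so the values are set side by side only. For the 20 largest increases NEUROG2 minus NEUROG2AQ ran from 1.11 ± 0.20 for HSPA2 to 4.59 ± 0.21 for ATP2A3. NEUROG2AQ minus control ran from -1.14 ± 0.30 for POSTN to 1.66 ± 0.20 for HSPA2. HSPA2 was the gene of the 40 that passed as changed in NEUROG2AQ arrays (limma adjusted p = 0.00346), where it averaged 8.86 ± 0.36 (SD, n = 4), against 9.97 ± 0.41 with NEUROG2 and 7.21 ± 0.23 in controls. For the 20 largest decreases NEUROG2 minus NEUROG2AQ ran from -2.27 ± 0.19 for CYP26A1 to -0.47 ± 0.27 for CD83, the gene of the 40 for which this difference did not pass (adjusted p = 0.453). In these 20 genes NEUROG2AQ minus control ran from -1.12 ± 0.27 for CD83 to 0.08 ± 0.15 for GSG2. Most of these differences lay below 0, among them CCN2 (-0.79 ± 0.15), and none passed. CD83 and HSPA2 were singled out here after their values were seen.

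Beyond single genes, 36 lists of genes by function and 37 families by symbol were read in the same fit. No member passed in 4 of the function lists and in 2 of the families. In the plot of members called per list, lists of surface proteins, actin, peptides and RAS and RAP GTPases lie above the background of 5.21% higher. The lists of G protein regulators (2.86%) and Rab GTPases (3.61%) lie below it. Lists of nuclear transport, clock genes and several transcription factor groups lie beyond the background of 5.37% lower. Each count below is of members measured on the array, and is to be read against those shares of all genes. Of the genes named below, KCND3, PDK4, GALNT9, CHGA, ANGPT2 and KLF13 averaged near or below the array medians in control arrays, so that their folds are uncertain as well.

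Size again depended on the probe set. Of 108 called list genes named in the text that had more than 1 probe set, averaging made the log2 change more than 1.5 times smaller, or turned its sign, in 64. It still passed in 42 of these, with the largest reductions in TRIM25 (0.53 ± 0.08), RNF128 (1.12 ± 0.12), CDH22 (0.97 ± 0.08), LRRN2 (1.16 ± 0.13), TRIM36 (0.60 ± 0.09) and FBXL20 (0.87 ± 0.12). The others that passed with smaller changes were AMD1, CAMK1G, CCDC80, CDH18, CFD, COL6A1, COL6A3, COL9A3, FMN2, FOXO4, GALNT9, GNB4, GPR157, HOXD4, INSIG1, KCNQ1, KLHL32, LRRC4C, MYO1D, NR1D2, NR4A2, PDLIM4, PER3, PIK3R1, PPARGC1A, PPP1R3B, RAB31, SEMA7A, SESN3, SLC12A4, SLC25A24, TMEM63C, TSPAN13, ULK1, USP44 and WIPI1. The 22 that did not pass when averaged were ADAMTS18, ANO1, ATF4, CHGA, CLCN4, COL4A1, CRY1, DDX47, DNAJA4, FOXO3, GPR155, KIF14, MITF, MRPL32, PAICS, PIK3R3, PLXNA4, SF3B1, SRM, TTC7B, UBE2H and USP49.

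**Figure D3:**
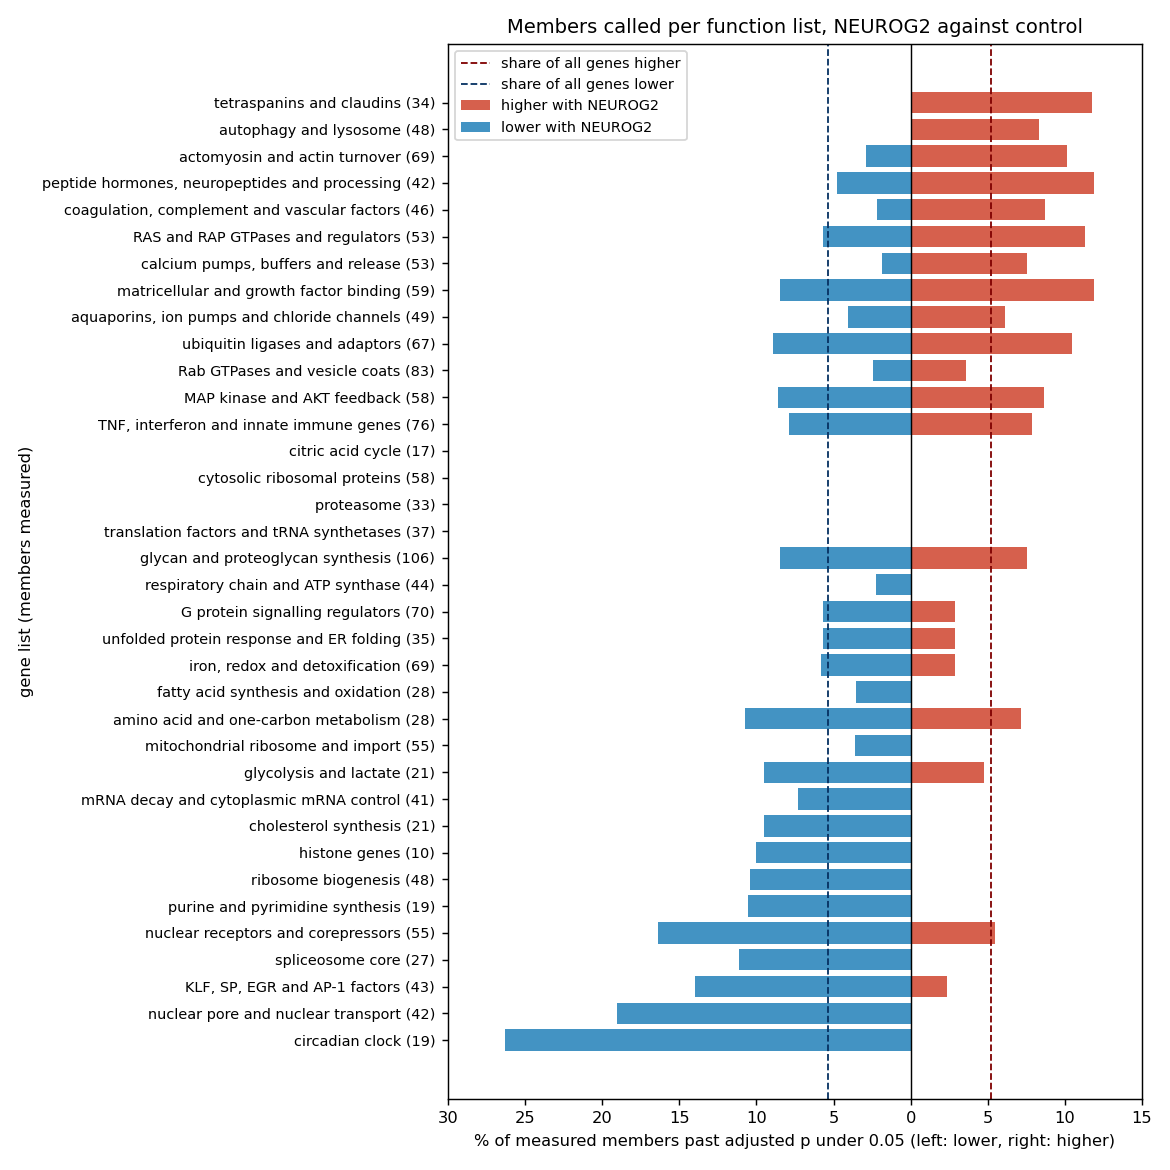
Bars give the percentage of measured members of each of 36 function lists that passed an adjusted p of 0.05, to the right for higher and to the left for lower with NEUROG2. Dashed lines mark the shares of all 13008 genes, 5.21% higher and 5.37% lower, and the number of members measured stands in brackets after each name.

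In small GTPase signalling, of 53 genes of RAS and RAP GTPases and their regulators 6 rose and 3 fell. RASD1, the nearest relative of RASD2, had log2 signals of 6.96 to 7.52 in NEUROG2 arrays and 4.26 to 5.67 in control arrays (2.37 ± 0.24, limma adjusted p = 1.16e-05). RERG, an estrogen-regulated growth inhibitor of the RAS family, rose as well (1.39 ± 0.19), and the exchange factor RASGEF1A fell (-1.27 ± 0.21). The count of RAS genes lower was 5 without NEUROG2 replicate 1 and 6 without control replicate 1. Heterotrimeric G protein regulators lay near background: 2 of 70 rose, RGS4 (0.89 ± 0.12), which shortens G protein signals, and GNG11 (0.85 ± 0.17), and 4 fell, the largest being GNB4 (-0.74 ± 0.17) and PDE3B (-0.53 ± 0.11). The G protein genes higher numbered 4 without control replicate 1.

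Kinase and phosphatase genes moved both ways. Of 58 genes of MAP kinase and AKT signalling and their feedback, 5 rose and 5 fell, and the 4 largest changes were all increases. PIK3R1 (1.31 ± 0.14) and PIK3R3 (0.97 ± 0.14), regulatory subunits of PI3 kinase, read 4.70 to 5.13 and 4.99 to 5.28 in NEUROG2 arrays, against 3.24 to 3.91 and 3.95 to 4.32 in control arrays. MAP3K13 (1.05 ± 0.13), a kinase of the JNK pathway, and DUSP14 (0.94 ± 0.10), a MAP kinase phosphatase, rose with them. Among 33 protein tyrosine phosphatases 2 rose, the receptor types PTPRG (1.51 ± 0.13) and PTPRE (1.30 ± 0.13), and 3 fell. PTPRE lay below the array medians in controls. Of 52 subunits of PPP phosphatases 4 rose and none fell, led by PPP1R17 (1.24 ± 0.15), an inhibitor of protein phosphatases, and PPP1R3B (1.04 ± 0.14), which directs protein phosphatase 1 to glycogen. The counts lower were 0 without NEUROG2 replicate 3, 1 without NEUROG2 replicate 4 or control replicate 2 or 3 and 5 without control replicate 1 for PTP genes, and 1 without NEUROG2 replicate 1 and 4 without control replicate 1 for PPP genes. The call of PIK3R3 ended, at an adjusted p of 0.081, when a gene's probe sets were averaged.

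Calcium, ion and water transport showed a few large changes in lists that were otherwise quiet. Of 53 calcium pump, buffer and release genes, 4 rose and 1 fell. Beside ATP2A3, CAMK1G, a calmodulin-dependent kinase, rose (1.80 ± 0.11), at 5.06 to 5.28 in NEUROG2 arrays and 3.20 to 3.54 in control arrays. NCS1, a neuronal calcium sensor, rose by 1.15 ± 0.13, and the plasma membrane pump gene ATP2B1 fell (-0.88 ± 0.16). The 2 calcium pump genes that passed thus moved in opposite directions. Of 49 genes of aquaporins, ion pumps and chloride channels, 3 rose, AQP1, the chloride transporter gene CLCN4 (1.25 ± 0.24) and the chloride channel gene ANO1 (0.73 ± 0.18), and 2 fell, SLC12A4 (-0.70 ± 0.18) among them. ANO1 read 2.12 to 2.73 with NEUROG2 and 1.38 to 1.83 in controls, below the array medians in both. Of 60 potassium channel genes 3 rose, among them KCND3 (1.71 ± 0.17) and KCNQ1 (1.04 ± 0.12), and 2 fell, KCNK5 (-1.28 ± 0.20) by most. The calcium count lower was 2 without control replicate 1, the count lower of aquaporins and pumps 1 without NEUROG2 replicate 1 or 4 or control replicate 2 or 3, and the potassium channel counts 5 without control replicate 1 for higher and 1 without NEUROG2 replicate 2, 3 or 4 or control replicate 2 for lower. The call of CLCN4 ended when a gene's probe sets were averaged (adjusted p = 0.0651), as did that of ANO1 (0.148), which also did not pass without NEUROG2 replicate 2 or 3 or control replicate 2. SLC12A4 did not pass without NEUROG2 replicate 1 or 4 or control replicate 2 or 3, at an adjusted p of up to 0.0882.

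Solute carriers, the largest family read, moved in both directions at about the background share. Of 282 measured, 10 rose (3.55%) and 15 fell (5.32%), with a median change of 0.00. SLC6A2, the noradrenaline transporter, rose most, at 6.14 to 6.57 in NEUROG2 arrays and 4.04 to 5.05 in control arrays (1.80 ± 0.18, limma adjusted p = 1.15e-05). SLC1A3, a glutamate transporter of glia and radial progenitors, fell (-1.07 ± 0.23), though its NEUROG2 replicate 1, at 6.03, lay above its lowest control, at 5.94. SLC2A1, the glucose transporter GLUT1, fell (-0.88 ± 0.12), and SLC25A24, a mitochondrial carrier, rose (0.82 ± 0.13). Family counts moved with single arrays: those higher were 6 without control replicate 2 or 4 and 17 without control replicate 1, and those lower were 7 without control replicate 2, 8 without NEUROG2 replicate 3 and 9 without NEUROG2 replicate 4.

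Of 67 ubiquitin ligases and adaptors 7 were higher (10.4%) and 6 lower (8.96%). NEURL1, a ligase that acts on Notch ligands, rose most (3.12 ± 0.15). RNF128, a membrane-bound ligase, read 6.30 to 7.06 in NEUROG2 arrays and 4.08 to 4.60 in control arrays (2.45 ± 0.18, limma adjusted p = 4.72e-07). TRIM25, a ligase of the innate response to RNA viruses, rose by 1.86 ± 0.16 (none of its 3 other probe sets passed, and averaged it changed by 0.53 ± 0.08) and RNF165, a ligase that augments BMP signalling in mouse motor neurons, by 1.02 ± 0.14. The arrays of the groups did not overlap for any of these 4 genes, as was so in 1281 of the 1377 genes that passed. In related families TRIM36 (1.52 ± 0.20) was among 3 of 31 TRIM genes higher, and 3 TRIM genes were lower. FBXL20 (1.70 ± 0.16), an F-box protein, was among 4 of 47 FBX genes higher, and 2 FBX genes were lower. The TRIM count lower was 1 without NEUROG2 replicate 1 or 4 or control replicate 2 or 3. The FBX count lower was 1 without NEUROG2 replicate 2, 3 or 4 or control replicate 1 or 3. TRIM36 lay below the array medians in controls. Ligase genes lower numbered 3 without NEUROG2 replicate 4 or control replicate 2 or 3 and 10 without control replicate 1, TRIM genes higher 6 without control replicate 1, and FBX genes higher 2 without NEUROG2 replicate 2, 3 or 4 or control replicate 3. Of 33 genes of the proteasome, which degrades ubiquitinated proteins, none passed in limma, and 0 had an unadjusted p below 0.05.

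Genes named for tumour necrosis factor, interferon and innate immunity split evenly, 6 of 76 higher and 6 lower. TNFAIP2 and TMEM140 rose and TNFSF15 and IL17RD fell, all with values given above. These 4 are known from different settings, and the counts in each direction were the same under median centring and cyclic loess. Coagulation, complement and vascular genes had 4 of 46 higher and 1 lower. The gene lower was F3, and those higher included ANGPT2 (1.02 ± 0.20), an angiopoietin that acts on blood vessels, CFD (0.76 ± 0.12), complement factor D, and F10 (0.65 ± 0.15), coagulation factor X. The count higher was 2 without NEUROG2 replicate 1 or control replicate 4, and the count lower 3 without control replicate 1. The call of F10 ended without NEUROG2 replicate 1 or control replicate 4, at an adjusted p of up to 0.0577. Markers of blood and endothelium averaged 3.04 to 3.14 in NEUROG2 arrays and 2.96 to 3.53 in control arrays, and their part in these values was not tested.

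Peptide genes, 5 of 42 higher (11.9%) and 2 lower, were led by PENK. TAC1, the precursor of substance P, read 5.07 to 5.70 in NEUROG2 arrays and 2.69 to 3.73 in control arrays (2.03 ± 0.24, limma adjusted p = 7.40e-05). CHGA, chromogranin A of secretory granules, rose (0.75 ± 0.21), and VIP, vasoactive intestinal peptide, fell (-0.77 ± 0.19). The list thus held changes of unequal weight: PENK and TAC1 passed in every setting without a fold limit. CHGA, at an adjusted p of up to 0.186, and VIP, at up to 0.0759, did not. Peptide genes higher numbered 3 without NEUROG2 replicate 4, and those lower 0 without NEUROG2 replicate 3 or control replicate 2 and 1 without NEUROG2 replicate 1 or 4 or control replicate 1.

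**Figure D4:**
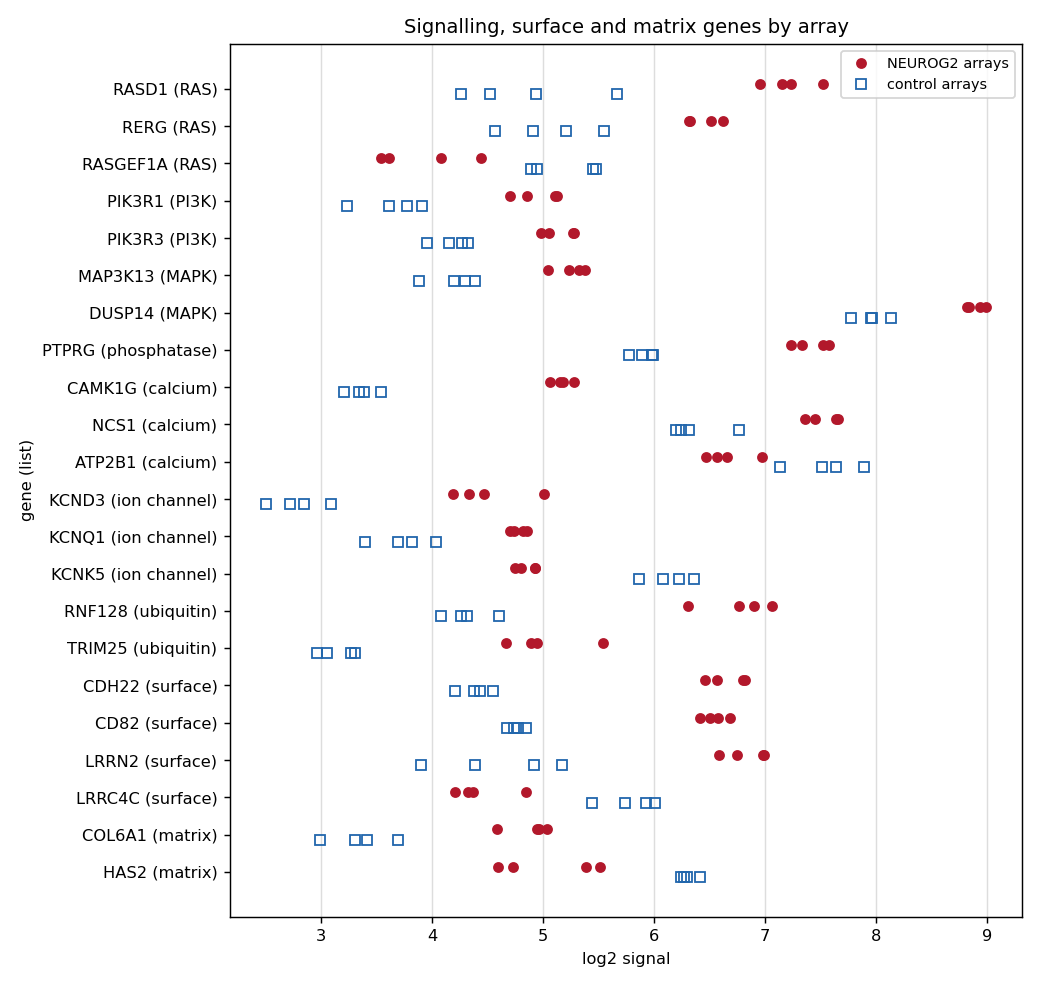
Log2 signal in each array of 22 signalling, transport, surface and matrix genes named in the text, with filled circles for the 4 NEUROG2 arrays and open squares for the 4 control arrays. These genes were picked by hand, and SLC1A3, TSPAN18 and DIAPH3, whose groups overlap, are not among them. The circles and squares of a gene shown do not overlap. RNF128, for example, read 6.30 to 7.06 against 4.08 to 4.60, and HAS2 read 4.59 to 5.52 against 6.24 to 6.42.

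At the cell surface, cadherins and tetraspanins that changed all rose. Of 38 cadherin and protocadherin genes, which mediate calcium-dependent adhesion, 5 rose (13.2%) and none fell. CDH22 read 6.46 to 6.82 in NEUROG2 arrays and 4.20 to 4.55 in control arrays (2.27 ± 0.12, limma adjusted p = 1.24e-08). CDH18 (1.13 ± 0.16), PCDH20 (0.95 ± 0.14) and PCDH8 (0.92 ± 0.21) rose from lower levels, and CDH18 and PCDH20 lay below the array medians in controls. Of 34 tetraspanins and claudins 4 rose and none fell: CD82 (1.79 ± 0.12), a metastasis suppressor in human tumours, TSPAN18 (0.90 ± 0.20), TSPAN13 (0.82 ± 0.11) and CD151 (0.81 ± 0.14), a partner of laminin-binding integrins. TSPAN18 overlapped between groups, at 3.46 to 4.48 with NEUROG2 and 2.83 to 3.58 in controls. Without control replicate 1, 1 cadherin gene was called lower. Leucine-rich repeat proteins went both ways, with 2 of 56 higher and 5 lower. LRRN2 rose (2.23 ± 0.21), and LRRC4C, the netrin G1 ligand, fell (-1.34 ± 0.16), with its 1 other probe set not past the threshold and an averaged change of -0.66 ± 0.10. The count higher in that family was 1 without NEUROG2 replicate 1 or control replicate 4, and the count lower 3 without NEUROG2 replicate 3 or 4. Integrins, the main matrix receptors, had 1 of 20 lower, ITGA6 (-0.64 ± 0.15), and that call ended without NEUROG2 replicate 4 or control replicate 2, 3 or 4 (adjusted p of up to 0.0654), while 2 passed without control replicate 1.

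Among guidance genes, of 24 semaphorins and plexins 4 rose and 1 fell. SEMA6D, a transmembrane semaphorin, read 7.21 to 7.95 in NEUROG2 arrays and 5.70 to 6.75 in control arrays (1.31 ± 0.23), and SEMA7A (0.96 ± 0.17) and the receptor PLXNA4 (0.90 ± 0.20) rose as well, while SEMA3D fell. Of 16 EPH receptors and ephrins 3 rose and 2 fell, EPHB1 (0.72 ± 0.11) up and EPHB3 (-0.77 ± 0.19) down. Semaphorin genes lower numbered 2 without control replicate 1. The ephrin family counts were 1 without NEUROG2 replicate 1, 3 or 4 or control replicate 2 or 3 for higher, and 0 without NEUROG2 replicate 3 or 4 or control replicate 2 and 1 without NEUROG2 replicate 1 or 2 or control replicate 3 for lower. PLXNA4 did not pass without NEUROG2 replicate 4 or with a gene's probe sets averaged (adjusted p of up to 0.0788), nor EPHB3 without NEUROG2 replicate 2, 3 or 4 or control replicate 2, or with the 8 arrays alone (up to 0.08).

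Extracellular matrix genes changed in both directions. Matricellular and growth factor binding genes had 7 of 59 higher (11.9%) and 5 lower (8.47%), with POSTN, CCN2, CYR61 and GDF10 the largest. Of 42 collagens 3 rose and 2 fell. COL6A1 (1.53 ± 0.16) and COL6A3 (1.27 ± 0.18), chains of the same collagen VI fibril, read 4.58 to 5.04 and 4.73 to 5.63 with NEUROG2, against 2.99 to 3.69 and 3.75 to 4.26 in controls. COL9A3 (0.99 ± 0.19) rose with them, and COL4A1, of basement membranes, fell (-0.60 ± 0.14). SERPINH1, the collagen chaperone HSP47, read 9.13 to 9.53 with NEUROG2 and 7.56 to 8.92 in controls (1.17 ± 0.22). ADAMTS5, a protease of proteoglycans, rose (1.55 ± 0.37). The collagen count lower was 0 without NEUROG2 replicate 3 or 4 and 1 without NEUROG2 replicate 2 or control replicate 1, 2, 3 or 4. COL4A1 did not pass without NEUROG2 replicate 3 or 4 or control replicate 3, or with a gene's probe sets averaged (adjusted p of up to 0.0665), nor ADAMTS5 without NEUROG2 replicate 3 or 4 (up to 0.0617).

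Of 106 enzymes that build glycans and proteoglycans 8 were higher (7.55%) and 9 lower (8.49%), against 5.21% and 5.37% of all genes. ST8SIA6 rose most. HAS2, which makes hyaluronan, read 4.59 to 5.52 in NEUROG2 arrays and 6.24 to 6.42 in control arrays (-1.25 ± 0.20, limma adjusted p = 0.000881). HS3ST1, a sulfotransferase of heparan sulfate, read 1.93 to 2.22 with NEUROG2, below the array medians, and 2.75 to 3.88 in controls (-1.30 ± 0.23). GALNT9, which starts O-linked glycans, rose by 0.94 ± 0.21. Glycan genes lower numbered 5 without NEUROG2 replicate 3 or control replicate 2. Without control replicate 1 they numbered 13, and glycan genes higher numbered 11.

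Genes of the actin cytoskeleton had 7 of 69 higher (10.1%) and 2 lower. FMN2 (1.33 ± 0.16) and DAAM1, at 5.71 to 5.92 with NEUROG2 and 4.54 to 5.03 in controls, formins that assemble actin filaments, rose, and the formin gene DIAPH3 fell (-1.06 ± 0.28), with overlapping groups, 2.43 to 3.08 with NEUROG2 and 2.78 to 4.49 in controls. PDLIM4 (1.09 ± 0.18), an adaptor at actin fibres, rose. Proteins named for PDZ and LIM domains had 6 of 27 higher (22.2%) and 1 lower, led by FHL3 (1.23 ± 0.13), which read 6.56 to 6.78 in NEUROG2 arrays and 5.13 to 5.70 in control arrays. PDZRN3 (0.90 ± 0.12) and FHL2 (0.83 ± 0.14) rose as well, from signals below the array medians. The actin count lower was 1 without NEUROG2 replicate 1, 3 or 4 or control replicate 2, 3 or 4. DIAPH3 did not pass in some settings, with an adjusted p of up to 0.105.

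Vesicle and lysosome genes gave few calls. Of 48 autophagy and lysosome genes 4 rose (8.33%) and none fell: WIPI1 (1.04 ± 0.13) and ULK1 (0.99 ± 0.11), which act early in autophagosome formation, MAP1LC3A (0.74 ± 0.11), which coats its membrane, and MITF (0.56 ± 0.16). ULK1 read 7.14 to 7.69 in NEUROG2 arrays and 6.26 to 6.50 in control arrays. The MITF call, which ended in 10 of the 17 settings without a fold limit, was lost at an adjusted p of up to 0.15. Of 83 Rab GTPase and vesicle coat genes 3 rose (3.61%), among them RAB26 (1.22 ± 0.14), a GTPase of secretory granules and synaptic vesicles, and CLTB (0.87 ± 0.21), a clathrin light chain, and 2 fell, RAB31 (-0.69 ± 0.11) by more. After cyclic loess 8 Rab and coat genes and 7 autophagy genes were higher. Rab genes higher numbered 5 without control replicate 1, and those lower 1 without NEUROG2 replicate 1, 3 or 4 or control replicate 2, 3 or 4. CLTB did not pass without NEUROG2 replicate 1 or 3 or control replicate 3 or 4, at an adjusted p of up to 0.0559. None of the 30 VPS sorting genes passed in limma (4 at an unadjusted p below 0.05), though 1 was called lower without control replicate 1 or 3.

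Transcription factor groups outside the neuronal sets fell more often than they rose. Of 30 HOX genes, which set position along the body axis, 10 fell (33.3%) and none rose, with a median change of -0.32 against 0.01 over all genes. HOXA4 fell most among those called. HOXA6 read 6.12 to 6.86 in NEUROG2 arrays and 7.65 to 8.02 in control arrays (-1.33 ± 0.17, limma adjusted p = 0.000164), and HOXA3 (-0.99 ± 0.13) and HOXD4 (-0.95 ± 0.12) fell as well. HOXA9, named after its values were seen, had the largest difference of all (-1.79 ± 0.55) but did not pass (adjusted p = 0.0678), its arrays being spread over 3.22 to 4.61 with NEUROG2 and 4.59 to 6.85 in controls. The count lower was 7 without NEUROG2 replicate 3 or 4 or control replicate 1 or 2, and at most 9 without any other single array. It was 10 after median centring and 8 after cyclic loess. Which body level each pool contained was not given by the labels, and its part in these values was not tested.

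Among 87 ZNF and ZFP zinc finger genes 10 fell (11.5%) and 1 rose. The gene that rose was ZNF488 (1.85 ± 0.20), at 4.91 to 5.84 with NEUROG2 and 3.37 to 3.93 in controls. ZFP36L2 and its relative ZFP36L1 (-0.78 ± 0.12), both destabilisers of AU-rich mRNAs, fell, as did ZNF608 (-1.07 ± 0.19). The zinc finger count lower was 5 without NEUROG2 replicate 3 or 4 and 6 without control replicate 2, 3 or 4. It was 13 without control replicate 1. Of 43 KLF, SP, EGR and AP-1 factors 6 fell and 1 rose, with a median of -0.21: SP8 (-1.26 ± 0.15), KLF11 (-0.94 ± 0.11), MAFA (-0.71 ± 0.16) and KLF10 (-0.68 ± 0.11) fell most. SP8, a factor also known from limb and forebrain, read 7.63 to 8.26 in NEUROG2 arrays and 9.01 to 9.54 in control arrays. The 1 call higher in this list, KLF13, was lost after median centring, after cyclic loess and without NEUROG2 replicate 2 or 4 or control replicate 2 or 4.

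Nuclear receptors and their cofactors had 9 of 55 lower (16.4%) and 3 higher. The count lower was 6 without NEUROG2 replicate 3 and 11 without control replicate 1. NR2F2, the orphan receptor COUP-TFII, read 6.66 to 7.16 in NEUROG2 arrays and 7.59 to 7.99 in control arrays (-0.90 ± 0.12, limma adjusted p = 0.000245). NR4A2, the orphan receptor NURR1 of dopaminergic neurons, rose (1.08 ± 0.15) from signals below the array medians. BCOR and CITED4, with the values above, were the largest changes of the list in either direction. Circadian clock genes had 5 of 19 lower (26.3%) and none higher, with a median of -0.16. PER3 (-1.18 ± 0.16), NR1D2 (-0.88 ± 0.15), BHLHE41 (-0.84 ± 0.12) and CRY1 (-0.51 ± 0.11), all of which act as repressors in the clock, fell most. PER3 read 2.68 to 3.56 with NEUROG2 and 4.10 to 4.38 in controls, while BHLHE41 was below the array medians in both groups. None of the 3 other probe sets of PER3 passed, and averaged it changed by -0.50 ± 0.08. CRY1 did not pass when a gene's probe sets were averaged (adjusted p = 0.0595).

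**Figure D5:**
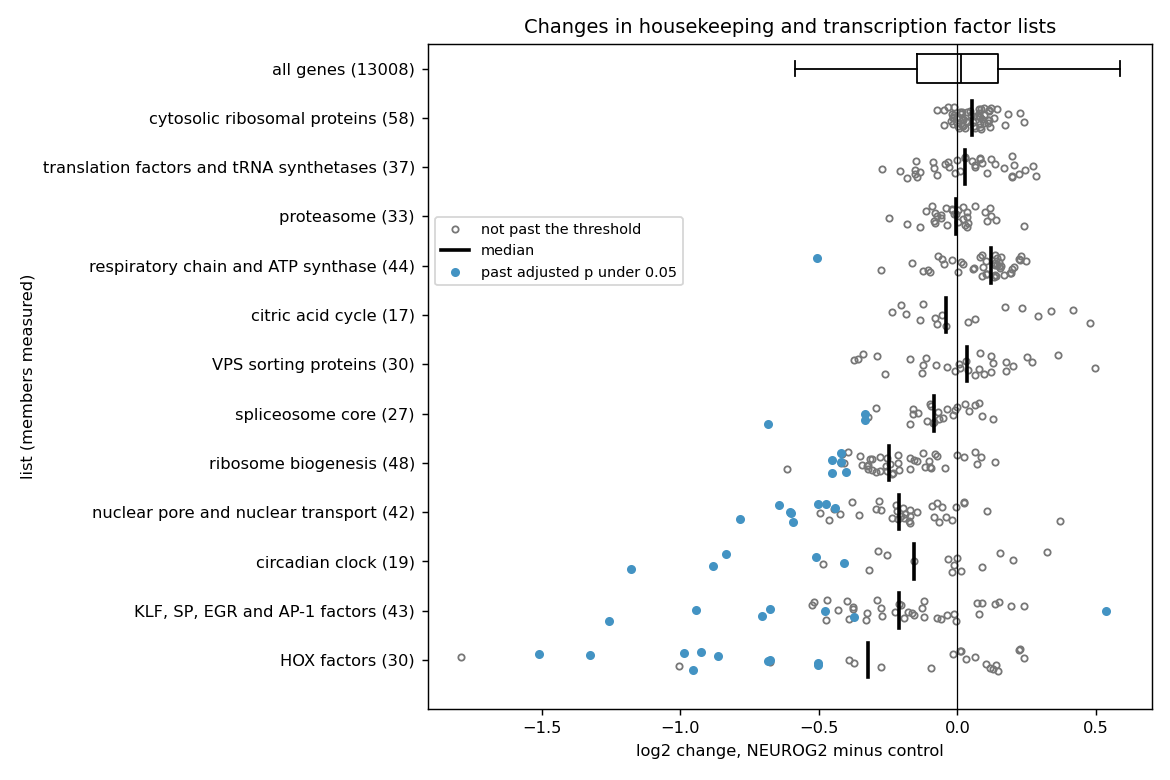
Log2 change of each member (circles), NEUROG2 minus control, in 12 lists, with filled circles past an adjusted p of 0.05, a bar at each median, and all 13008 genes as a box of quartiles at the top, whose whiskers reach the farthest genes within 1.5 box lengths. The 58 ribosomal protein genes lie between -0.07 and 0.24, while 10 of 30 HOX genes are filled and lie below 0.

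Housekeeping machinery held lists with no call and lists with a few small decreases. Of 58 cytosolic ribosomal protein genes none passed in limma, against 2 at an unadjusted p below 0.05, their changes ran from -0.07 to 0.24, and in all 58 the 95% interval lay within 0.5 of 0. The 2 largest were RPS13 (0.24 ± 0.10) and RPL29 (0.23 ± 0.09). None of 37 translation factor and tRNA synthetase genes passed either (3 at an unadjusted p below 0.05), with 30 intervals within 0.5. The 33 proteasome genes also had 30 such intervals. In the respiratory chain and ATP synthase 1 of 44 genes fell, COX5A (-0.51 ± 0.11), which read 5.95 to 6.14 in NEUROG2 arrays and 6.28 to 6.75 in control arrays, and 39 intervals lay within 0.5. Mitochondrial ribosome and import genes had 2 of 55 lower, MRPL32 (-0.49 ± 0.10) of the mitochondrial ribosome and TIMM9 (-0.46 ± 0.10), an import chaperone, each lost in 1 of the 17 settings (adjusted p of up to 0.0972 and 0.0505). In the list for the citric acid cycle SUCLA2 stood at 0.48 ± 0.22 and IDH1, a cytosolic enzyme outside the cycle itself, at 0.42 ± 0.12. None of its 17 genes passed in limma (4 at an unadjusted p below 0.05), although 3 were called higher without control replicate 1. Without that array 1 gene of the mitochondrial list was called higher as well, and without control replicate 4 the count lower in it was 1.

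Ribosome biogenesis genes, which build ribosomes in the nucleolus, had more changes below 0 than above. Of 48 measured 43 had changes below 0, the median was -0.25, and 5 passed as lower, none as higher. Examples are WDR43 (-0.45 ± 0.11), NOC2L (-0.45 ± 0.12), DDX21 (-0.42 ± 0.11) and NOP16 (-0.42 ± 0.10). NOP16 read 7.98 to 8.05 in NEUROG2 arrays and 8.25 to 8.60 in control arrays. The count moved with single arrays: it was 1 without NEUROG2 replicate 3 or 4, 2 without NEUROG2 replicate 1 or control replicate 2, 3 without control replicate 3 and 10 without control replicate 1, and 1 after cyclic loess. WDR43, NOC2L and DDX21 each did not pass after cyclic loess, with the 8 arrays alone and without NEUROG2 replicate 3 or 4 or control replicate 2, among other settings, at adjusted p of up to 0.0816, 0.106 and 0.128. Spliceosome core genes had 3 of 27 lower, SNRPF (-0.68 ± 0.16), SF3B1 (-0.33 ± 0.09) and SNRPD1 (-0.33 ± 0.09), lost in 2, 10 and 12 of the 17 settings. The count became 0 without NEUROG2 replicate 1 or 4 and 1 without NEUROG2 replicate 3 or control replicate 3 or 4.

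Nuclear pore and transport genes fell in larger number, 8 of 42 (19.0%) with none higher, and 38 of the 42 had changes below 0 (median -0.21). RCC1, which loads the GTPase RAN at chromatin, read 5.86 to 6.58 in NEUROG2 arrays and 6.83 to 7.05 in control arrays (-0.78 ± 0.16, limma adjusted p = 0.0076). KPNA2 (-0.64 ± 0.15), an import receptor that is also a cell cycle gene, and the pore proteins NUP35 (-0.60 ± 0.12) and NUP43 (-0.60 ± 0.10) followed. The count was 5 without NEUROG2 replicate 3 or 4 or control replicate 2 and 13 without control replicate 1. It was 8 after median centring and after cyclic loess. KPNA2 did not pass without NEUROG2 replicate 3 or 4 or control replicate 2, at an adjusted p of up to 0.0674. Genes of mRNA decay had 3 of 41 lower, ZFP36L2, ZFP36L1 and AGO3 (-0.42 ± 0.10), a small RNA binding Argonaute protein, and none higher. That count was 6 without control replicate 1, and AGO3 did not pass without NEUROG2 replicate 2, 3 or 4 or control replicate 4 (up to 0.0637).

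Metabolic lists held a few calls each. Of 28 amino acid and one-carbon genes 2 rose and 3 fell. GLUL, glutamine synthetase, read 8.42 to 8.72 in NEUROG2 arrays and 6.64 to 7.42 in control arrays (1.46 ± 0.14, limma adjusted p = 5.78e-06), and GLDC (0.74 ± 0.13), which cleaves glycine, rose too. AMD1 (-0.83 ± 0.11) and SRM (-0.61 ± 0.14), consecutive enzymes of polyamine synthesis, fell. SRM did not pass when a gene's probe sets were averaged (adjusted p = 0.0515). Of 21 glycolysis and lactate genes PDK4 (1.18 ± 0.16), a kinase that turns off pyruvate dehydrogenase, rose, and 2 fell, the glucose transporter SLC2A1 and the lactate transporter SLC16A1 (-0.36 ± 0.10). The SLC16A1 call was lost in most settings (adjusted p of up to 0.134), and the count lower was 1 in each run without an array other than NEUROG2 replicate 1. Cholesterol synthesis had 2 of 21 lower, INSIG1 (-0.83 ± 0.16), a sterol sensor, and SQLE (-0.41 ± 0.10), which makes squalene epoxide. SQLE did not pass after cyclic loess, with the 8 arrays alone, or without NEUROG2 replicate 2 or 4 or control replicate 4 (adjusted p of up to 0.0829), and without any of those 3 arrays the count was 1.

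In the list of iron, redox and detoxification genes 2 of 69 rose and 4 fell, shares below background for higher and near it for lower, and 3 of these 6 act on retinoic acid. ALDH1A3, which makes retinoic acid, read 3.39 to 3.94 in NEUROG2 arrays and 1.65 to 2.24 in control arrays, the controls below the array medians (1.69 ± 0.16, limma adjusted p = 6.39e-06). CYP26A1 and CYP26C1 (-0.73 ± 0.19), which degrade it, fell, as did the receptor gene RARB (-0.61 ± 0.14), named after its values were seen. SESN3 (1.26 ± 0.20), a stress-induced inhibitor of mTORC1, rose. Without control replicate 1 the count higher in this list was 5, and the count lower was 2 without NEUROG2 replicate 3 or 4 or control replicate 2 or 4. CYP26C1 was lost in 7 of the 17 settings, at an adjusted p of up to 0.106.

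Other named families gave mixed counts. Of 166 TMEM transmembrane proteins 8 rose and 8 fell, and after TMEM140 the largest increases were TMEM100 (1.66 ± 0.23), TMEM63C (1.39 ± 0.14) and TMEM108 (0.94 ± 0.18). The TMEM count lower was 2 without NEUROG2 replicate 3, 3 without NEUROG2 replicate 4 or control replicate 2 or 4, 4 without control replicate 1 and 5 without control replicate 3. Of 32 KLHL proteins, adaptors of ubiquitin ligases, 4 rose and 1 fell, led by KLHL32 (0.82 ± 0.13). Of 40 DNAJ co-chaperones, partners of HSP70 proteins such as HSPA2, 2 rose, DNAJA1 (0.60 ± 0.13) and DNAJA4 (0.55 ± 0.12), and DNAJC9 fell (-0.50 ± 0.12). The DNAJ count lower was 0 without NEUROG2 replicate 3 or 4 or control replicate 2 and 4 without control replicate 1. DNAJA4 and DNAJC9 did not pass in some settings, at adjusted p of up to 0.0902 and 0.0549. CCDC80 (1.01 ± 0.16), a secreted matrix protein, was the gene higher among 75 CCDC proteins, and KDM7A (-0.89 ± 0.14), a histone demethylase, the gene lower among 20 KDM and KMT enzymes, where 3 were lower without control replicate 1. The CCDC count lower, 2, was 4 without that array.

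Lists of nucleotide, lipid and protein folding genes had few calls. Of 19 genes of purine and pyrimidine synthesis 2 fell, PAICS (-0.49 ± 0.10), an enzyme of purine synthesis, and HPRT1 (-0.42 ± 0.11), which salvages purines. On its brightest probe set PAICS read 8.70 to 8.93 in NEUROG2 arrays and 9.26 to 9.45 in control arrays. Its 1 other probe set passed in the opposite direction, as higher. Averaged over its probe sets PAICS changed by 0.12 ± 0.08 (limma adjusted p = 0.422), so its direction depends on the probe set. HPRT1 did not pass in 8 of the 17 settings (up to 0.107). The count lower was 1 without NEUROG2 replicate 2 or 3 or control replicate 2, and the count higher 1 without control replicate 1. Of 28 genes of fatty acid synthesis and oxidation PPARGC1A (-0.80 ± 0.13), a coactivator of mitochondrial genes, fell, and the counts were 1 without control replicate 1 or 2 for higher and 2 without control replicate 1 for lower. Of 35 genes of the unfolded protein response and ER folding CREB3L2 (0.61 ± 0.11), a factor held in the ER membrane, rose, and XBP1 (-0.49 ± 0.13) and ATF4 (-0.36 ± 0.09), factors of that response, fell. CREB3L2 was lost in 1, XBP1 in 8 and ATF4 in 6 of the 17 settings (adjusted p of up to 0.0779, 0.0825 and 0.305), and the count lower was 0 without NEUROG2 replicate 1 or 3 and 1 without NEUROG2 replicate 2 or 4 or control replicate 2, 3 or 4. Of 10 histone genes 1 fell, HIST1H111L, and 3 did so after median centring and 2 after cyclic loess.

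Of 35 kinesins, motors that walk on microtubules, 7 fell (20.0%) and none rose, and 10 of the 35 also belong to the classical sets. Among the 7 that fell, KIF23, KIF18B, KIF14, KIF18A and KIF20A are in those sets. KIF2C and KIF4B are not listed there, which does not place them outside the cell cycle. KIF23 (-1.11 ± 0.14), a kinesin of cytokinesis, read 6.70 to 7.40 in NEUROG2 arrays and 7.92 to 8.27 in control arrays, and KIF18B (-0.97 ± 0.13) fell with it. KIF14 (-0.96 ± 0.27) and KIF18A (-0.94 ± 0.26) overlapped between groups and were lost in 11 and 9 of the 17 settings (adjusted p of up to 0.152 and 0.13). The kinesin count lower was 12 without control replicate 1. Of 24 forkhead factors 1 rose, FOXO4 (0.54 ± 0.11), and 3 fell. FOXM1 (-1.21 ± 0.15), a factor of the cell cycle, read 4.40 to 5.21 with NEUROG2 and 5.81 to 6.11 in controls. FOXO3 (-0.70 ± 0.14) did not pass with its probe sets averaged (adjusted p = 0.0889). FOXD3 (-0.77 ± 0.21), a factor of neural crest, overlapped between groups and was lost in 8 settings (up to 0.13).

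In the families of ubiquitin enzymes 3 of 24 UBE2 conjugating enzymes rose and 2 fell, with UBE2T (-0.54 ± 0.10), UBE2J1 (0.42 ± 0.09), UBE2G1 (-0.39 ± 0.10) and UBE2H (0.35 ± 0.09) changing most. The last 3 were lost in 1, 6 and 7 of the 17 settings (adjusted p of up to 0.0575, 0.081 and 0.16). The UBE2 counts were 1 without NEUROG2 replicate 2 or 4 or control replicate 3 or 4 for higher, and 1 without NEUROG2 replicate 1, 3 or 4 or control replicate 4 for lower. Of 42 USP deubiquitinases USP41 rose, and USP44 (-0.62 ± 0.11) and USP49 (-0.49 ± 0.10) fell, USP49 not with its probe sets averaged (adjusted p = 0.0526), and the count lower was 8 without control replicate 1. Of 60 RNF proteins 5 rose, among them RNF19B (1.03 ± 0.15), at 4.97 to 5.13 in NEUROG2 arrays and 3.68 to 4.33 in control arrays, and RNF11 (0.55 ± 0.09), and 1 fell. The RNF count lower was 0 without NEUROG2 replicate 3 or 4, 2 without NEUROG2 replicate 2 or control replicate 4 and 3 without control replicate 1.

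Among surface and protease families, 4 of 41 GPR orphan receptors rose and 1 fell, GPR157 (0.65 ± 0.14), GPR155 (0.64 ± 0.13) and GPR160 (0.57 ± 0.13) up and GPR180 (-0.60 ± 0.17) down. GPR155, GPR160 and GPR180 were lost in 1, 3 and 8 of the 17 settings (adjusted p of up to 0.0763, 0.0534 and 0.147), and the count lower was 0 without NEUROG2 replicate 1, 3 or 4 or control replicate 2, 3 or 4. Of 33 ADAM and ADAMTS proteases ADAMTS5 and ADAM33 (1.02 ± 0.27) rose, ADAM33 reading 4.94 to 5.43 with NEUROG2 and 3.57 to 4.82 in controls, and ADAMTS18 (-0.66 ± 0.12) fell, below the array medians in both groups. ADAM33 was lost in 5 settings (up to 0.0983) and ADAMTS18 with its probe sets averaged (0.135), and the count higher was 0 without NEUROG2 replicate 3 and 1 without NEUROG2 replicate 1 or 4 or control replicate 3. Of 14 SERPIN inhibitors SERPINH1 and SERPINB1 (0.47 ± 0.12) rose, SERPINB1 not in 4 settings (up to 0.0918), and the count higher was 1 without NEUROG2 replicate 3 or 4 or control replicate 2 or 3. Of 17 TSPAN genes the 2 named above rose, and of 35 MAP3K, MAP4K and MAPK kinases MAP3K13 rose. The counts of these kinases were 2 without NEUROG2 replicate 1 and 3 without control replicate 1 for higher and 1 without control replicate 1 or 4 for lower.

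Families of RNA helicases and repeat proteins gave few calls. Median changes were -0.08 for DDX and DHX helicases, -0.09 for WDR proteins and 0.05 for TTC proteins. DDX21, and WDR43 of the WDR family, are also counted among the ribosome biogenesis genes. Of 41 DDX and DHX helicases 3 fell, DDX28 (-0.62 ± 0.11), DDX47 (-0.45 ± 0.12) and DDX21, and the count was 1 without NEUROG2 replicate 4 or control replicate 2 or 3 and 6 without control replicate 1. Of 50 WDR proteins 4 fell, led by WDR1 (-0.54 ± 0.11), which helps to take actin filaments apart, and WDR4 (-0.53 ± 0.13), part of a tRNA methyltransferase, and the count was 1 without NEUROG2 replicate 3 or 4 or control replicate 3 and 2 without control replicate 2. Of 28 TTC proteins 3 fell, TTC7B (-0.61 ± 0.14), TTC4 (-0.52 ± 0.11) and TTC27 (-0.42 ± 0.12), while the count higher was 1 without NEUROG2 replicate 1. DDX47, WDR4, TTC7B and TTC27 were lost in 8, 4, 1 and 10 of the 17 settings (adjusted p of up to 0.518, 0.0797, 0.116 and 0.13). Of 23 myosins MYO1D (0.55 ± 0.09) rose, from signals below the array medians, and the count lower was 1 without control replicate 2. Of 32 ANK proteins ANKRD40 (0.76 ± 0.10) rose, at 5.26 to 5.43 in NEUROG2 arrays and 4.38 to 4.79 in control arrays. None of 15 HDAC and SIRT deacetylases passed in limma (2 at an unadjusted p below 0.05), with HDAC9 at 0.49 ± 0.18 and SIRT6 at 0.28 ± 0.13, and the count higher was 1 without control replicate 1.

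Of the 10350 tested probe sets without a symbol in the tables used here, 512 passed, 278 higher and 234 lower. This is a smaller share than the 6.67% of all probe sets that passed. Of these the largest increase was 3.27 ± 0.27, with log2 signals of 5.67 ± 0.46 in NEUROG2 arrays and 2.40 ± 0.31 in control arrays (SD, n = 4), and the next was 2.64 ± 0.15. The largest decreases were -1.57 ± 0.16 and -1.51 ± 0.17. The arrays of the groups did not overlap for any of these 4, which were picked by size. The same held for 1281 of the 1377 genes that passed.

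Markers of other cells were read over whole lists. Of 17 neural tube markers 7 fell and none rose, and their mean was lower in each NEUROG2 array than in any control array. Of 15 neural crest markers 6 fell and 1 rose, with a mean of 5.14 to 5.36 in NEUROG2 arrays and 5.52 to 5.80 in control arrays. Notochord and floor plate markers averaged 3.61 to 3.96 with NEUROG2 and 3.81 to 4.39 in controls, the highest again in control replicate 1. Surface ectoderm markers averaged 4.18 to 4.48 with NEUROG2 and 4.33 to 4.50 in controls, and endoderm and lateral plate markers 2.75 to 2.94 with NEUROG2 and 2.78 to 3.09 in controls. No somite marker passed in limma (0 of 16 at an unadjusted p below 0.05), with TWIST1 at -0.41 ± 0.46 and FOXC2 at -0.41 ± 0.25. RNA integrity was read from control probes: the 3' minus 5' log2 signal of actin and EF1A controls was 1.73 ± 0.15 in NEUROG2 arrays and 1.80 ± 0.12 in control arrays (SD, n = 4, two-sided exact permutation p = 0.514). The smallest p that 4 against 4 arrays allow is 0.0286. The part of these markers in the changes above was not tested.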

How the data were processed

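RNA of GFP-positive chick neural tube cells was read on 12 Affymetrix chicken arrays, 4 each of NEUROG2, NEUROG2AQ and control. The log2 values deposited by the authors were used unchanged. GCOS, RMA and affy are named in the submitters' processing notes, without versions, and that the base is 2 was inferred from the range of the values. Such values are already normalized between arrays, so that a shift shared by all genes cannot be seen. Of 38535 probe sets, 842 were left out (96 of them Affymetrix controls) because their identifiers do not start with Gga. The other 37693 were fitted with limma 3.58.1 in R 4.3.3 over all 12 arrays, with 9 residual degrees of freedom, no covariate, and Benjamini-Hochberg adjustment over all of them. Summaries used pandas 2.3.3 and scipy 1.17.1. Fold changes are differences of log2 signals, and errors are standard errors unless given as SD.

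Symbols came from the platform's annotation, 26851 of them brought up to date through a RefSeq gene table used for names alone, and 315 kept as the platform gives them. Of the tested probe sets 177 had several symbols and 10350 had none, and these were not named. For each gene the probe set that was brightest on average was used, 7334 genes having several. The 36 function lists, 37 families and 7 marker lists, with 15 older symbols matched by hand, were chosen with earlier results of these data known, as was the comparison. Genes named are the 20 highest and 20 lowest outside the classical sets, among genes that passed and whose groups did not overlap. From each list, some or all of the 4 largest calls are named (the 2 largest where none passed), with exceptions stated in the text. Sequences were not used here. The text gives counts for each of these lists and families, and 1 further list is not reported here. The labels call the arrays biological replicates, each a pool of 20 embryos, so p-values measure the spread between such pools. The number of arrays limits the precision. The fit was checked on simulated data. Alternatives were array weights, trend and robust moderation, other scalings, a filter on dim probe sets, averaged probe sets, a 2-fold limit, the 8 arrays alone, a replicate block and leaving out each array.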

Additional observations from a re-analysis of the deposited data

Results flagged for a closer look

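Among 428 groups of 4 values, the NEUROG2 and the control arrays of each gene named in the text that passed the test, 24 (5.61%) held 1 array far from the other 3, its gap to the nearest of them taking up most of the group's range. Chance gives about 1 in 20 such groups. The distant array was NEUROG2 replicate 2 in 5 groups and control replicate 1 in 4, and no array held more than 5. All values below are log2 signals.

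Of the genes with the largest changes, CYP26A1 read 5.16 in NEUROG2 replicate 3, against 5.84 to 5.85 in the other 3 NEUROG2 arrays, and ING2 read 3.58 in the same array, against 4.31 to 4.44. SEMA3D read 6.47 in NEUROG2 replicate 2, against 6.15 to 6.19. MDGA1 read 3.11 in control replicate 4, against 2.73 to 2.77 in the other controls. PKDCCA read 6.09 in control replicate 1, against 6.42 to 6.48, and NEDD9 read 3.45 in control replicate 3, against 3.73 to 3.77. The distant array could not reach the other group's values in these 6 genes, because only genes whose groups do not overlap were chosen.

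The rest were genes named from lists. ADAMTS5 read 4.04, GLDC 8.18 and TAC1 5.70 in NEUROG2 replicate 2. AGO3 read 6.37 and F10 4.29 in NEUROG2 replicate 1, and FBXL20 read 6.72 in NEUROG2 replicate 4. DNAJC9 read 8.73 in NEUROG2 replicate 2 and 8.79 in control replicate 1, each apart from the rest of its group. RGS4 read 5.20 in NEUROG2 replicate 4 and 3.77 in control replicate 4. Among controls, CD151 read 5.66 in control replicate 4, COL4A1 6.32 in control replicate 3 and DNAJA4 8.31 in control replicate 1. GPR160 read 4.77 in NEUROG2 replicate 1 and PAICS 8.70 in NEUROG2 replicate 3. KIF18B read 5.66 in control replicate 3, TIMM9 7.57 in control replicate 1 and USP44 4.52 in control replicate 2.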

How the results depend on the processing

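Of 18 other settings, 17 kept the threshold without a fold limit. In those, the 40 genes picked by size outside the classical sets, among passing genes whose groups did not overlap, all stayed past it. For 9 of them the log2 change was more than 1.5 times smaller when probe sets were averaged (ATP2A3 1.79 against 3.97). Of 202 other genes that the naming rule picks and that passed, 133 also did so in all 17 (or all in which they were tested), and 69 were lost in at least 1. The 1 called value that changed direction was PAICS, -0.49 as deposited and 0.12 when a gene's probe sets were averaged. Its 1 other probe set passed as higher. Asking for at least 2-fold left 537 probe sets (376 higher, 161 lower) and 311 genes (216 higher, 95 lower). Leaving out 1 array gave 1771 to 3253 probe sets (977 to 1421 higher, 784 to 1832 lower) and 994 to 1767 genes (541 to 798 higher, 441 to 969 lower). The lowest counts lower, 784 probe sets and 441 genes, came without NEUROG2 replicate 3, and 840 probe sets were lower without NEUROG2 replicate 4. Without control replicate 1 and NEUROG2AQ replicate 4, a setting chosen after seeing the data, 3682 probe sets passed, of which 2141 were lower, and 1099 genes were lower. Median centring moved the median change of all probe sets to -0.020 and cyclic loess to 0.007, against 0.010 as deposited. With the replicate number as a block 2463 probe sets passed (1216 higher, 1247 lower). The deviations of same-numbered arrays correlated at 0.178, 0.228, -0.019 and 0.131, and 3 of 4 NEUROG2 arrays correlated best with their own number, a hint of pairing in the data. Because 1 pair lay below the 0.1 asked of every pair, the numbers were not taken as pairs. A 95% interval of 0.27 to either side in the median gene limits what 4 arrays a group can show, and signals near the array medians give uncertain folds. The causes of these shifts were not tested.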
